A study of Homo sapiens with 21 samples.

Results

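In SK-N-BE(2) cells, an established human neuroblastoma line, 403 sites of open chromatin lost accessibility when ARID1A was silenced and kept it when ARID1B was silenced. They were chosen by their measured values. Accessibility was expressed as CPM (the raw read count of a site over the total count of its library, scaled to 1000000), averaged over 3 libraries. A site was taken when its Control mean was at least 2 CPM, when the means of both ARID1A shRNAs were at most 0.67 of Control, and when the means of both ARID1B shRNAs were at least 0.9 of Control. The 403 sites made up 0.410% of the 98404 sites that reached 2 CPM in Control (termed eligible sites, since only these could be chosen) and 0.110% of all 367900 sites.

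ATAC-Seq reads open chromatin through the Tn5 transposase, which inserts into accessible DNA, and was done at 72 h after lentiviral transduction. Every group was transduced with lentivirus, and the 7 groups of 3 libraries were Control, ARID1A silencing with shARID1A.2 or shARID1A.4, ARID1B silencing with shARID1B.2 or shARID1B.3, and silencing of both genes with shARID1A/B.2.3 or shARID1A/B.4.2 (termed the combinations). Control was the non-silencing control, the only control group. The triplicates were described as biological, all come from a single cell line, and the degree of silencing was not measured in the data used here. Libraries held between 16140029 and 44472230 reads in sites, a 2.76-fold range, and replicate pairs of a group differed by more than counting noise (chi-square per degree of freedom 1.08 to 2.51 over 21 pairs).

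ARID1A and ARID1B are large DNA-binding subunits of the BAF chromatin remodelling complex. Each BAF complex carries ARID1A or ARID1B but not both, and the subunit that is incorporated holds the ATPase module and the core together. BAF complexes move nucleosomes away from enhancers, so that transcription factors can bind there, and cells that lose ARID1A often rely on ARID1B. In adrenergic neuroblastoma, enhancers are bound by a core set of factors that includes the basic helix-loop-helix (bHLH) protein HAND2 and the zinc-finger protein GATA3. Of the adrenergic genes examined at their start sites, HAND2 had 43.8 ± 2.15 CPM (SD, n = 3) in Control and GATA3 had 15.6 ± 0.883 CPM, DBH had 10.3 ± 1.19 CPM and TH had 2.42 ± 0.330 CPM. Within 1 kb of their start sites, no site was listed for the lymphocyte genes CD3E and PTPRC, for KRT8, or for the hepatocyte genes ALB and APOA1. Sites were listed for the epithelial genes EPCAM (6.596 CPM) and CDH1 (2.74 CPM) and for the muscle genes MYOD1 (12.7 CPM) and MYF5 (4.33 CPM).

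The following sequences are the central 300 bases of 6 chosen sites on the plus strand of GRCh38, shown because these sites carry the extremes of the values described thereafter. Each is named after the gene with the nearest transcription start site, and no link to that gene's regulation was measured. Capitals mark matches on either strand to the homeodomain, paired homeodomain, GATA, AP-1 and first-form or HAND-type E-box letters, which are spelled out further on except for the paired homeodomain pattern. A match is a string of letters and no evidence of binding. The first sites were among the 3 with the lowest relative accessibility after ARID1A silencing, by the higher of their ratios for the ARID1A shRNAs. They were the TYW1 site in an intron of TYW1 (window chr7:67036844-67037143) and the ENOX1 site in an intron of ENOX1 (chr13:43238956-43239255).
TYW1: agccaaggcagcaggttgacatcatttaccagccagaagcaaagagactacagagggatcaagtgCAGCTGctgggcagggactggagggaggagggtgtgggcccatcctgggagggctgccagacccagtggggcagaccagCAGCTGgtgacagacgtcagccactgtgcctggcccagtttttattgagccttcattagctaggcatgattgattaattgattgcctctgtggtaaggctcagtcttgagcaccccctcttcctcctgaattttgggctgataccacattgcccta
ENOX1: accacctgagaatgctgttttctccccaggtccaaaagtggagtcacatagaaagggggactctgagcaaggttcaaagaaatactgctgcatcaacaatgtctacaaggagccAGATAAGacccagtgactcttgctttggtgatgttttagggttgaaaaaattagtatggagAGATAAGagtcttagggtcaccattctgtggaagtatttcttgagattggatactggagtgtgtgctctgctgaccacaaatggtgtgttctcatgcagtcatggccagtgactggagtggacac

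The PTGER4 site was the most accessible of the 403 in Control and was intergenic, 250.8 kb from the start of PTGER4, which encodes a prostaglandin E2 receptor (window chr5:40429995-40430294). The LOC101927082 site, also intergenic, had the second highest combination ratio to Control (chr6:51550302-51550601).
PTGER4: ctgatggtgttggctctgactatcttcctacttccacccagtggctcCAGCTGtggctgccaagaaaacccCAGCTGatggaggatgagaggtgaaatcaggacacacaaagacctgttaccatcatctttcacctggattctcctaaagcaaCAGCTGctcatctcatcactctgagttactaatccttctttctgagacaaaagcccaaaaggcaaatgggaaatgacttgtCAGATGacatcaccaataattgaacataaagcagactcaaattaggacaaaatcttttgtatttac
LOC101927082: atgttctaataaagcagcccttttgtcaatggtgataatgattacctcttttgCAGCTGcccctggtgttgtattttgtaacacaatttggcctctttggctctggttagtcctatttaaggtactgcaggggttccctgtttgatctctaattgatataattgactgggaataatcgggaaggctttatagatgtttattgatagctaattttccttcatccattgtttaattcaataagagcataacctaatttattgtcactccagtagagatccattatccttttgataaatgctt

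Finally, the TSPAN9 site in an intron of the tetraspanin gene TSPAN9 (chr12:3205009-3205308) and the intergenic PCDH10 site, 416.2 kb from this protocadherin gene (chr4:133565378-133565677), had the smallest p between the combinations in either direction.
TSPAN9: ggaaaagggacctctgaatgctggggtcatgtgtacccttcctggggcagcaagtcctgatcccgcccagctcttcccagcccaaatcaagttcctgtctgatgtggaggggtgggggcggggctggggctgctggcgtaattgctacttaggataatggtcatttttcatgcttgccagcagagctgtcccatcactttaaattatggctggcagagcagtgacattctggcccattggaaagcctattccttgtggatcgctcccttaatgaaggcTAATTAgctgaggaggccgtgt
PCDH10: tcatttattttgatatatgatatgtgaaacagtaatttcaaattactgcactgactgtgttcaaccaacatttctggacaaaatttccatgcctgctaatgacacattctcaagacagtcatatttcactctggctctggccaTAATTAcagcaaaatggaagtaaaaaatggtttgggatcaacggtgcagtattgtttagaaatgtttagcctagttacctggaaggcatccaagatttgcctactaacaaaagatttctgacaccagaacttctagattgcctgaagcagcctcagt

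The rule set these sites apart from a much larger group. Of the 98404 eligible sites, 7185 had both ARID1A means at or below 0.67 of Control. Among those 7185, the 403 members (5.61%) kept both ARID1B means at or above 0.9, 2033 sites (28.3%) had both ARID1B means at or below 0.67 (termed lowered by all 4 shRNAs), and 4749 (66.1%) lay between. The mirrored rule, with ARID1A and ARID1B exchanged, found 24 sites among the 3621 with both ARID1B means at or below 0.67 (0.663%). These numbers describe the choice and are no test. The limits fell within a continuous distribution. The 3 members just inside the ARID1A limit, near GAP43, LOC100506937 and FBXL7, had a higher ARID1A ratio of 0.6697, 0.6696 and 0.6693, and the 3 sites just outside, near GALNT10, PRSS55 and KIT, had 0.6701, 0.6703 and 0.6703.

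**Figure D1:**
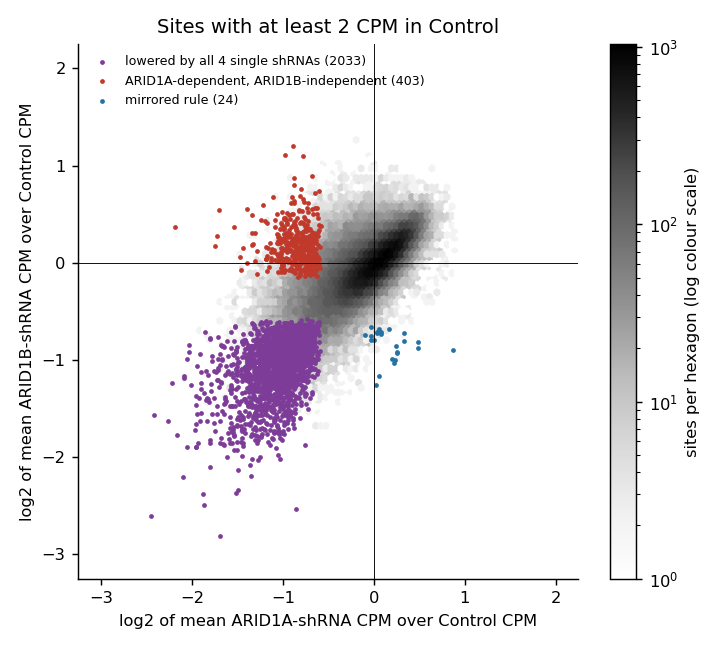
Each of the 98404 sites with at least 2 CPM in Control is placed by the log2 ratio to Control of the mean of both ARID1A shRNAs (horizontal) and of both ARID1B shRNAs (vertical), with the grey scale giving sites per hexagon on a log colour scale. The 403 ARID1A-dependent, ARID1B-independent sites (red) lie left of 0 on the horizontal axis and near or above 0 on the vertical axis, the 2033 sites lowered by all 4 shRNAs (purple) lie at lower left, and the 24 sites of the mirrored rule (blue) lie below 0 on the vertical axis.

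In the libraries that chose them, the members' median ratio to Control was 0.562 with shARID1A.2 and 0.576 with shARID1A.4, against 1.08 with shARID1B.2 and 1.09 with shARID1B.3. The median Control level was 4.07 CPM and ranged from 2.01 to 36.4 CPM. At 388 members (96.3%) all 6 ARID1A libraries lay below all 3 Control libraries, against 17.3% of eligible sites and 7.11% of all sites. A site was called at a false discovery rate (FDR) under 0.01 in edgeR's quasi-likelihood test. With ARID1A silenced, 399 members were called lower, where 5.37% of all 357029 sites tested and 15.9% of eligible sites were. With ARID1B silenced, 44 were called higher, where 1.40% of all sites tested and 3.63% of eligible sites were, and 0 were called lower by edgeR, also at an unadjusted p under 0.05, where 3.53% and 10.3% were. Directly between the genes, 402 members were lower with ARID1A silenced than with ARID1B silenced, where 3.69% and 9.63% were. Since the rule used all of these libraries, nothing is read from these counts.

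To see how much of this separation would remain in libraries that did not choose the sites, the rule was applied again without replicate 1, 2 or 3 of every group, and the libraries left out were then measured. The rule chose 412, 431 and 429 sites, of which 277, 257 and 274 were among the 403. In the libraries left out, the median ratio to the left-out Control library was 0.537 to 0.586 with shARID1A.2 and 0.562 to 0.599 with shARID1A.4. It was 1.04 to 1.11 with shARID1B.2 and 1.09 to 1.12 with shARID1B.3. In each round at least 97.4% of the chosen sites were below Control with shARID1A.2, and between 31.2% and 44.2% were below Control with shARID1B.2. The ARID1A level was below the ARID1B level at 99.3% or more of the sites in each round. Between 59.6% and 67.2% of the sites chosen in a round were among the 403, so membership changed with the libraries used. In the libraries left out, 37.6%, 28.3% and 29.4% of the chosen sites met every limit of the rule again.

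The most ARID1A-dependent member was the LOC101928121 site, in an intron of SOGA3 and 4.08 kb from the start of this non-coding gene. Control libraries had 9.77, 12.1 and 9.49 CPM. The site fell to 1.77, 2.15 and 1.89 CPM with shARID1A.2 and to 3.38, 2.44 and 2.11 CPM with shARID1A.4. It stood at 14.1, 10.8 and 12.1 CPM with shARID1B.2 and at 13.97, 14.95 and 15.02 CPM with shARID1B.3. ARID1B libraries overlapped Control only through shARID1B.2, whereas all ARID1A libraries lay far below it. In the combinations, which the rule did not use, the site had 1.17, 2.22 and 2.04 CPM (shARID1A/B.2.3) and 2.52, 2.80 and 2.52 CPM (shARID1A/B.4.2). The combination libraries thus lay near the ARID1A libraries. Their log2 change was -2.26 ± 0.12 to Control (SE, FDR 2.2e-29, edgeR) and -0.08 ± 0.13 to ARID1A silencing (FDR 0.825, edgeR). Control and the ARID1A libraries were used to choose this site, here for its lowest ARID1A ratio. A missed threshold also does not show equal levels, so these changes describe the site as chosen.

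The ENOX1 site (chr13:43238097-43240114) lay in an intron of ENOX1, which encodes a cell-surface oxidoreductase, and carries the pair of GATA matches printed above. It had 5.64, 5.46 and 7.11 CPM in Control, between 0.990 and 2.30 CPM in the 6 ARID1A libraries and between 6.19 and 7.81 CPM in the 6 ARID1B libraries. The combinations had 1.34, 1.49 and 1.59 CPM and 1.87, 1.53 and 1.53 CPM. No combination library reached the Control range (log2 change to Control -1.98 ± 0.14 SE, FDR 5.3e-22, edgeR). The AMOTL1 site (chr11:94727661-94728330) was in an intron of AMOTL1, an angiomotin-family gene whose product binds the Hippo pathway effector YAP. It had 8.12, 8.16 and 8.30 CPM in Control and 9.78 to 13.4 CPM with shARID1B.2, and the 6 combination libraries had between 1.89 and 2.68 CPM. All ARID1A libraries were at or below 3.17 CPM, so ARID1A silencing alone and the combinations occupied the same range.

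The CHAT site lay in an intron of CHAT (chr10:49628706-49630099), the gene of choline acetyltransferase, the enzyme that makes acetylcholine. Control libraries had 27.0, 25.6 and 22.7 CPM, and the ARID1B libraries had 24.1 to 25.8 CPM, within the Control range. ARID1A libraries had 8.43 to 10.5 CPM. The combinations had 8.74, 8.79 and 9.40 CPM and 12.1, 11.6 and 10.7 CPM, again with no overlap with Control (log2 change -1.32 ± 0.08 SE, FDR 1.8e-25, edgeR). The other members with the lowest ARID1A ratios were near TYW1, a tRNA-modifying enzyme, CUX1, a homeodomain transcription factor, SLC6A6, the taurine transporter, ARHGEF28, a guanine nucleotide exchange factor, DCBLD2, a neuropilin-like receptor, and COMMD1, a copper-homeostasis protein. Their combination means were 0.306 to 0.397 of Control, and each was called lower than Control in the mean of both combinations.

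**Figure D2:**
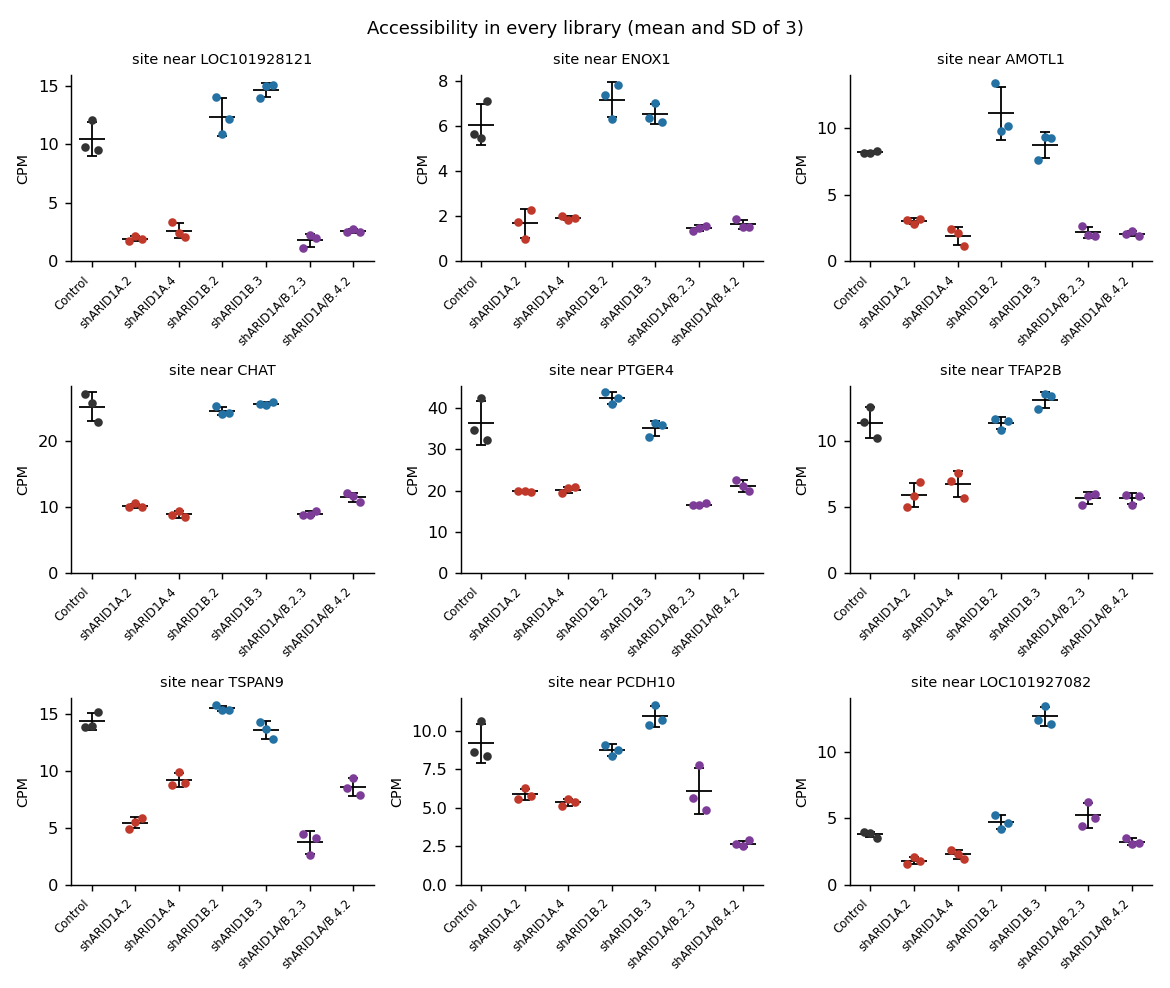
Each panel shows CPM at 1 site in all 21 libraries, as points, with the mean and SD of 3 libraries per group. At the LOC101928121, ENOX1, AMOTL1, CHAT, PTGER4 and TFAP2B sites the combination libraries lie below all Control libraries, at TSPAN9 and PCDH10 the combinations lie apart from each other, and at LOC101927082 shARID1A/B.2.3 lies above Control.

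Silencing both genes was the condition that the rule left untouched, although it shares the Control libraries with the rule. Over members, the combination shARID1A/B.2.3 had a median ratio to Control of 0.505 and the combination shARID1A/B.4.2 of 0.545. Library by library the median over members was 0.482 to 0.525 in shARID1A/B.2.3 and 0.522 to 0.548 in shARID1A/B.4.2, and 0.544 to 0.574 in the ARID1A libraries. Both combinations therefore lay slightly below or at the level of ARID1A silencing, while eligible sites had medians of 0.926 to 0.967 in the same 6 libraries. The mean of both combinations was at or below 0.67 of Control at 360 members (89.3%), against 20.9% of eligible sites and 11.7% of all sites. It was at or above 0.9 at 6 members (1.49%), against 58.1% and 68.6%. All 6 combination libraries lay below all 3 Control libraries at 362 members (89.8%), against 25.2% of eligible sites and 10.6% of all sites. They lay below all 6 ARID1B libraries at 365 members (90.6%), against 9.81% of eligible sites and 3.45% of all sites. The rule also used the ARID1B libraries, so nothing is read from this last count.

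In the mean of both combinations against Control, 380 of the 403 members (94.3%) were called lower (edgeR, FDR under 0.01), against 10.3% of the 357029 sites tested and 26.9% of eligible sites. The median log2 change was -0.94 over members, -0.07 over eligible sites and 0.03 over all sites tested. No member was called higher (0 of 403 by edgeR and by DESeq2, with 1 at an unadjusted p under 0.05 in edgeR), where 3.44% of all sites tested and 9.52% of eligible sites were. Separately, 373 members were lower with shARID1A/B.2.3, where 10.4% of all sites tested and 27.8% of eligible sites were, and 322 with shARID1A/B.4.2, where 7.37% and 20.7% were. In neither was a member higher (0 of 403 by edgeR and by DESeq2, 1 each at an unadjusted p under 0.05), where 2.86% and 5.75%, and 3.97% and 11.8%, were. The 310 members lower with both made up 76.9%, 75 were lower with a single combination and 18 with neither. This split was counted over members only. Over eligible sites, the share lower with both cannot exceed the 20.7% lower with shARID1A/B.4.2. Scaling on promoter sites in place of all sites shifted the median of all tested sites, for the mean of both combinations, from 0.03 to -0.19. That of the members moved alike, from -0.94 to -1.16. With that scaling 396 members were called lower, where 37546 of the 98404 eligible sites were. The median of the members lay below that of all tested sites under either scaling.

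**Figure D3:**
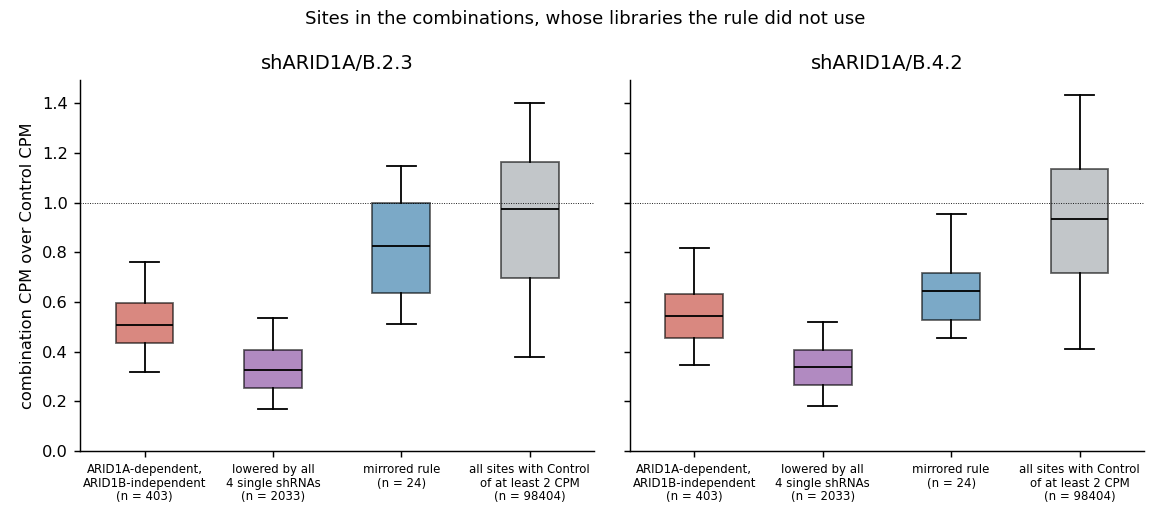
Boxes give the median and quartiles, and whiskers the 5th to 95th percentile, of combination CPM over Control CPM for the 403 members, the 2033 sites lowered by all 4 shRNAs, the 24 sites of the mirrored rule and all 98404 eligible sites. Members had medians of 0.505 (left panel) and 0.545 (right panel), between the sites lowered by all 4 shRNAs and the eligible sites.

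The combinations were then set beside ARID1A silencing alone, to ask what silencing ARID1B added at the members. The combination mean over the ARID1A mean had a median of 0.941 over members, against 0.690 over sites lowered by all 4 shRNAs, 0.676 over the 24 mirrored sites and 0.983 over eligible sites. Against both ARID1A shRNAs, 25 members (6.20%) were called lower in the combinations (edgeR, FDR under 0.01), where 3.40% of all sites tested and 10.8% of eligible sites were, and 13 (3.23%) were called higher, where 0.343% and 0.808% were. Among the 2033 sites lowered by all 4 shRNAs, 1026 (50.5%) were lower and 1 was higher. The ARID1A libraries also chose the members by their low values, which favours a rise in the combinations. The 0.941 and these counts therefore describe the sites as chosen. The ARID1B libraries were used to choose the sets as well. Members had to keep their accessibility with ARID1B silenced, and the mirrored sites and those lowered by all 4 shRNAs had to lose it. The comparison with these sets therefore cannot decide what silencing ARID1B added, and nothing is read from their order.

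Among members called lower, the largest additional loss was at an intergenic site of chromosome 4 (chr4:33878706-33879544), 101.2 kb from the nearest start site. It had 8.03, 11.1 and 8.50 CPM in Control, 2.70, 4.05 and 3.17 CPM with shARID1A.2 and 4.76, 4.88 and 5.70 CPM with shARID1A.4. The combinations had 1.57, 1.95 and 1.82 CPM and 2.34, 2.48 and 2.43 CPM, below all ARID1A libraries (log2 change to ARID1A silencing -0.99 ± 0.12 SE, FDR 2.6e-10, edgeR). ARID1B silencing alone left it at 7.44 to 12.9 CPM, a range that holds all Control libraries. The KCNJ6 site (chr21:37918205-37918844), 2.09 kb from the start of this inward-rectifier potassium channel gene, also fell further in the combinations than with ARID1A silencing (-0.65 ± 0.16 SE, FDR 0.0042, edgeR), as did the TMIGD2 site (-0.73 ± 0.16 SE, FDR 4.4e-04, edgeR). At KCNJ6 the combinations had 0.569, 0.708 and 0.772 CPM and 1.65, 1.67 and 1.71 CPM, so shARID1A/B.2.3 lay below every ARID1A library and shARID1A/B.4.2 within their range of 1.25 to 2.30 CPM.

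A small number of members went the other way and were back at the Control level when both genes were silenced. At the RSRC1 site (chr3:158291903-158293084), in an intron of this splicing-related gene, Control had 10.004, 10.998 and 8.89 CPM and ARID1A libraries had 4.55 to 6.94 CPM. The combinations had 8.88, 10.8 and 9.31 CPM and 10.1, 10.1 and 9.40 CPM, within or beside the Control range. The log2 change was 0.78 ± 0.09 (SE) against ARID1A silencing (FDR 8.9e-12, edgeR) and -0.03 ± 0.10 against Control (FDR 0.879, edgeR). The ARID1A libraries chose this site by their low values, which favours a rise from them. It was also named for its high combination ratio, so these changes describe the site as chosen. With ARID1B silenced alone the libraries had 10.7 to 14.4 CPM at this site.

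At the intergenic LOC101927082 site (chr6:51550173-51550729) shARID1B.3 gave the highest values, 12.4, 13.5 and 12.1 CPM, against 5.25, 4.22 and 4.67 CPM with shARID1B.2 and 3.95, 3.85 and 3.53 CPM in Control. ARID1A libraries had 1.55 to 2.60 CPM. The combinations had 4.39, 6.25 and 4.99 CPM (shARID1A/B.2.3) and 3.52, 3.02 and 3.10 CPM (shARID1A/B.4.2). The ARID1B shRNAs thus differed from each other at this site, and so did the combinations (log2 0.62 ± 0.14 SE, FDR 0.0011, edgeR). At the intergenic LOC100507403 site (chr8:37242842-37243589) the combinations had 3.32 to 4.27 CPM against 2.54 to 3.09 CPM in Control, and its rise over Control missed the threshold (log2 0.38 ± 0.14 SE, FDR 0.034, edgeR). The TRNAK29 site, at the promoter of a lysine tRNA gene (chr6:28747254-28748144), and the MIR3681 site were also near Control in the combinations, at 1.01 and 0.966 of the Control mean.

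**Figure D4:**
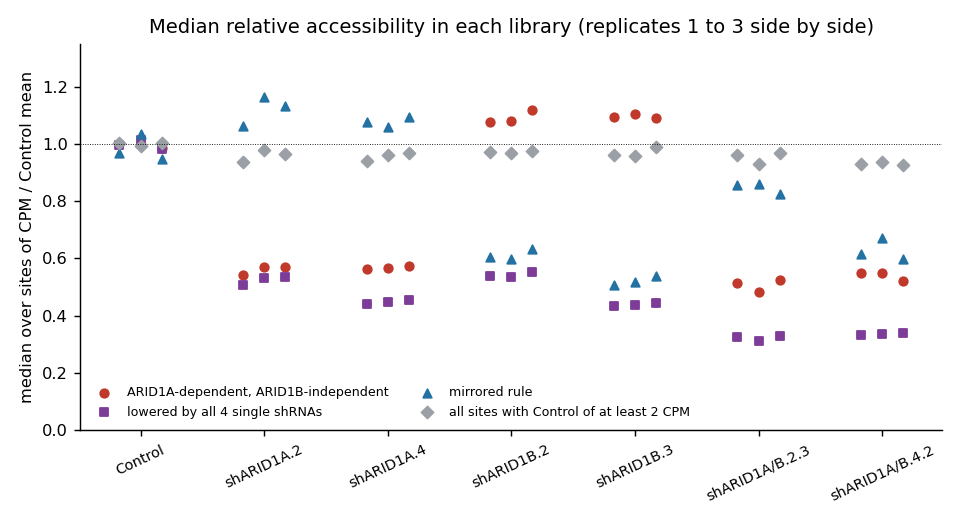
Each point is the median over sites of 1 library's CPM divided by the Control mean, for members (red circles), sites lowered by all 4 shRNAs (purple squares), the mirrored rule (blue triangles) and eligible sites (grey diamonds). In every combination library the members sit between 0.482 and 0.548, close to the ARID1A libraries, while the sites lowered by all 4 shRNAs drop from 0.442 to 0.536 with ARID1A silencing to 0.313 to 0.339 in the combinations.

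The only contrast in which no library was used by the rule was that between the combinations. With shARID1A/B.2.3, 53 members (13.2%) were lower than with shARID1A/B.4.2 and 14 (3.47%) were higher (edgeR, FDR under 0.01). The background was 3.78% lower and 1.44% higher over all sites tested, and 11.5% lower and 3.20% higher over eligible sites. Among the sites lowered by all 4 shRNAs, 5.85% were lower and 1.87% were higher. The count of members depended on single libraries, with 35 lower without shARID1A/B.2.3 replicate 2. Higher calls were 8 and 7 without shARID1A/B.2.3 replicate 1 and 2, and 8, 6 and 4 without shARID1A/B.4.2 replicate 1, 2 and 3. The excess of lower over higher calls depended on the scaling. It was 22 against 24 with scaling on promoter sites and 40 against 18 with total counts alone, while the median over members was -0.19 against -0.09 over eligible sites with the scaling on all sites, and -0.0043 against 0.09 with promoter sites. The labels do not spell out which single shRNAs each combination held. By their numbers, shARID1A/B.2.3 can only match shARID1A.2 with shARID1B.3, and shARID1A/B.4.2 only shARID1A.4 with shARID1B.2.

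The TSPAN9 site (chr12:3204583-3205734) was the clearest example of a lower value with shARID1A/B.2.3. It had 13.9, 14.001 and 15.2 CPM in Control. In shARID1A/B.2.3 it had 4.42, 2.59 and 4.13 CPM, against 8.55, 9.38 and 7.87 CPM in shARID1A/B.4.2 (log2 difference -1.34 ± 0.13 SE, FDR 1.5e-13, edgeR). The single ARID1A shRNAs were unequal here as well, with 4.91, 5.55 and 5.84 CPM for shARID1A.2 and 8.78, 9.89 and 8.98 CPM for shARID1A.4. The TRIM14 site, in an intron of the coronin gene CORO2A (chr9:98145912-98147031), had 5.73, 4.37 and 5.31 CPM against 10.6, 10.01 and 10.3 CPM (-1.11 ± 0.12 SE, FDR 1.0e-11, edgeR), with 17.2, 17.6 and 16.4 CPM in Control. Both combinations stayed below Control at these 2 sites.

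At the MIR3679 site, in an intron of the glycosyltransferase gene MGAT5 (chr2:134166235-134167642), shARID1A/B.2.3 had 3.52, 3.17 and 3.86 CPM and shARID1A/B.4.2 had 6.68, 6.85 and 8.32 CPM, with 6.998, 6.64 and 6.35 CPM in Control (difference between combinations -1.16 ± 0.13 SE, FDR 1.9e-11, edgeR). Only shARID1A/B.2.3 lay below Control there. In the other direction, the PCDH10 site (chr4:133565144-133565911) had 5.66, 7.76 and 4.86 CPM in shARID1A/B.2.3, above the 2.65, 2.48 and 2.88 CPM of shARID1A/B.4.2 (1.13 ± 0.15 SE, FDR 2.8e-09, edgeR), against 8.59, 10.7 and 8.34 CPM in Control. The GPD1L site (chr3:32093602-32094523) had 2.71, 2.56 and 3.72 CPM against 1.17, 1.26 and 1.48 CPM (1.07 ± 0.19 SE, FDR 1.5e-05, edgeR), and shARID1A/B.2.3 overlapped the Control values of 3.15, 3.47 and 3.61 CPM. At each of these 3 sites 1 combination lay below the other.

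The most accessible member in Control was the PTGER4 site (chr5:40429438-40430851). Control had 34.7, 42.4 and 32.3 CPM, ARID1A libraries 19.4 to 20.8 CPM and ARID1B libraries 33.0 to 43.9 CPM. The combinations had 16.4, 16.4 and 16.9 CPM and 22.5, 21.01 and 19.8 CPM, all below Control (log2 change -0.97 ± 0.08 SE, FDR 1.2e-19, edgeR). The next most accessible, near ARRDC3-AS1, MIR7160 and LOC101928579, had combination means of 0.658, 0.609 and 0.665 of Control and were each called lower in the mean of both combinations.

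Members were mostly distal. Of the 403, 192 (47.6%) were intergenic, 190 (47.1%) intronic, 9 exonic, 6 at gene ends and 6 (1.49%) at promoters, by the deposited annotation. Promoters made up 9.93% of eligible sites, 3.92% of the 40917 eligible sites whose Control level lay between the members' quartiles of 2.84 and 6.73 CPM, and 0.836% of sites lowered by all 4 shRNAs. The median distance to the nearest start site was 49.1 kb, against 32.7 kb over eligible sites and 53.2 kb over sites lowered by all 4 shRNAs. The median width was 1182 bases, against 1752 and 1097 bases. GC content of the central 300 bases had a median of 44.0%, as for sites lowered by all 4 shRNAs, against 48.7% over eligible sites. In these features the members resembled the sites lowered by all 4 shRNAs more than eligible sites, and the combination ratio was alike across classes (0.523 for intronic, 0.539 for intergenic and 0.592 for promoter members, medians).

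The 5 most accessible promoter members were those of LOC102723861, APBB1, SH2D6, TRNAK29 and RP11-313C15.1. APBB1, which encodes a binding partner of the amyloid precursor protein, had 11.1 ± 0.193 CPM (SD, n = 3) in Control, 6.26 ± 0.6701 with shARID1A.2 and 7.38 ± 0.400 with shARID1A.4, and 7.17 ± 0.598 and 8.34 ± 0.638 in the combinations (log2 change of the mean of both combinations to Control -0.53 ± 0.10 SE, FDR 6.7e-06, edgeR). SH2D6, an SH2-domain adaptor gene, had 6.36 ± 1.09 CPM in Control and 2.87 ± 0.204 and 4.10 ± 0.479 CPM in the combinations (-0.89 ± 0.12 SE, FDR 3.3e-09, edgeR). Of the 6 promoter members, 5 were called lower in the mean of both combinations, and TRNAK29 was the exception.

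The members had 387 nearest genes. Another member lay within 100 kb of 34 members (8.44%), against 25.1% for sites lowered by all 4 shRNAs. That set is larger, which raises the share with a neighbour, and no draw of like size was made. Nothing is therefore read from this gap. The members lay on 23 chromosomes, with 0.262% of eligible sites on chromosome 11 and 1.01% on chromosome 22 as the lowest and highest shares. Within 50 kb, 365 members had at least 1 other eligible site, 1745 in all. These neighbouring sites lay somewhat below eligible sites. Their median ARID1A ratio was 0.914, against 0.968 over eligible sites, and their median combination ratio was 0.878, against 0.965. Both ARID1A means were at or below 0.67 at 157 neighbouring sites (8.997%), against 7.30% of eligible sites. The gaps between neighbouring and eligible sites were not tested.

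Few members lay nearest to a gene of the 11 lists that were looked at. Of the 34 adrenergic regulators, 1 member lay nearest to TFAP2B, among 373 eligible sites of the list. Of the mesenchymal regulators 1 was nearest to RUNX1 (157 eligible sites), of the cadherins 2 were nearest to CDH18 and CDH7 (160), of axon guidance genes 3 to NRP1, PLXNA2 and ROBO1 (502) and of potassium channels 2 to KCND2 and KCNJ6 (276). None was nearest to an AP-1 gene (of 22 eligible sites), an integrin (82), a receptor kinase or neurotrophin receptor (179), a catecholamine gene (81), an extracellular matrix gene (191) or a BAF, PBAF or ncBAF subunit gene (84). At the overall share of 0.410%, lists of 22 to 502 eligible sites hold few members by their size alone.

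The TFAP2B site (chr6:50834454-50836530) lay in an intron of this AP-2 transcription factor gene, which is part of the adrenergic programme. It had 11.4, 12.5 and 10.2 CPM in Control, 4.997 to 7.58 CPM in the ARID1A libraries and 10.8 to 13.5 CPM in the ARID1B libraries. The combinations had 5.16, 5.79 and 5.99 CPM and 5.90, 5.14 and 5.84 CPM, inside the ARID1A range and below Control (log2 change -1.01 ± 0.10 SE, FDR 1.4e-14, edgeR). The RUNX1 site, 190.6 kb from this runt-domain transcription factor gene, had 3.73 ± 0.216 CPM (SD, n = 3) in Control and 2.06 ± 0.256 and 1.82 ± 0.0999 CPM in the combinations (-0.94 ± 0.14 SE, FDR 5.6e-08, edgeR). The CDH18 site, in an intron of this cadherin gene, changed by -1.06 ± 0.14 (SE, FDR 3.8e-10, edgeR). The ROBO1 site, 713.4 kb from the Slit receptor gene, had 3.23 ± 0.682 CPM in Control and 2.58 ± 0.342 and 2.65 ± 0.211 CPM in the combinations, and its log2 difference of -0.30 ± 0.14 (SE) missed the threshold (FDR 0.14, edgeR).

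Sequence was not used by the rule, and its pattern content differed between members and sites lowered by all 4 shRNAs. Matches to 18 patterns were counted in the central 300 bases, on both strands, and are given as shares of sites with at least 1 match. The homeodomain core, spelled TAATTA, was found in 21.1% of members, 12.3% of sites lowered by all 4 shRNAs and 8.31% of eligible sites. The paired homeodomain pattern was found in 4.47% (18 members), 1.57% and 1.06%. The letters AGATAAG, which the zinc-finger GATA factors read, were found in 8.68%, 4.53% and 4.33%. At least 1 of these 3 patterns was present in 121 members (30.0%), 17.02% of sites lowered by all 4 shRNAs and 12.7% of eligible sites.

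The E-box CAGATG, which HAND-type bHLH factors read, had another order, with 27.5% of members, 42.2% of sites lowered by all 4 shRNAs and 22.6% of eligible sites. The E-box CAGCTG, termed the first form, was present in 25.8%, 22.4% and 18.9%. The AP-1 letters TGANTCA were present in 14.9%, 10.03% and 9.90%, in the same order of sets. The MEIS letters TGACAG were present in 28.0%, 21.5% and 19.7%, and the NFI letters TTGGCA in 24.8%, 22.7% and 16.5%. Patterns of promoters were rarer in members than in eligible sites, with the ETS letters CCGGAAG at 0.993% against 2.90% and the AP-2 letters GCCNNNGGC at 9.43% against 14.8%. Among sites between the members' GC quartiles, described next, the ETS shares were 0.493% of members and 0.926% of eligible sites, and the AP-2 order turned, with 8.37% of members and 6.06% of eligible sites. The NRF1 letters GCGCATGC had no match in members and were in 0.784% of eligible windows. The E-box CAGGTG, read by ZEB and SNAI factors, was present in 19.9%, 14.9% and 23.05%, and the MYC-type E-box CACGTG in 2.98%, 3.20% and 4.69%. Shares of members and eligible sites were closer for the TEAD letters GGAATG (18.4% and 15.8%), the RUNX letters TGTGGT (16.1% and 17.1%), the SOX letters ACAATG (16.1% and 12.9%) and the T-box letters AGGTGTGA (1.74% and 1.62%). The CTCF pattern had no match in the windows of members and of sites lowered by all 4 shRNAs, and 1.16% of eligible windows held one. No test was made of these shares, since sites are not replicates.

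**Figure D5:**
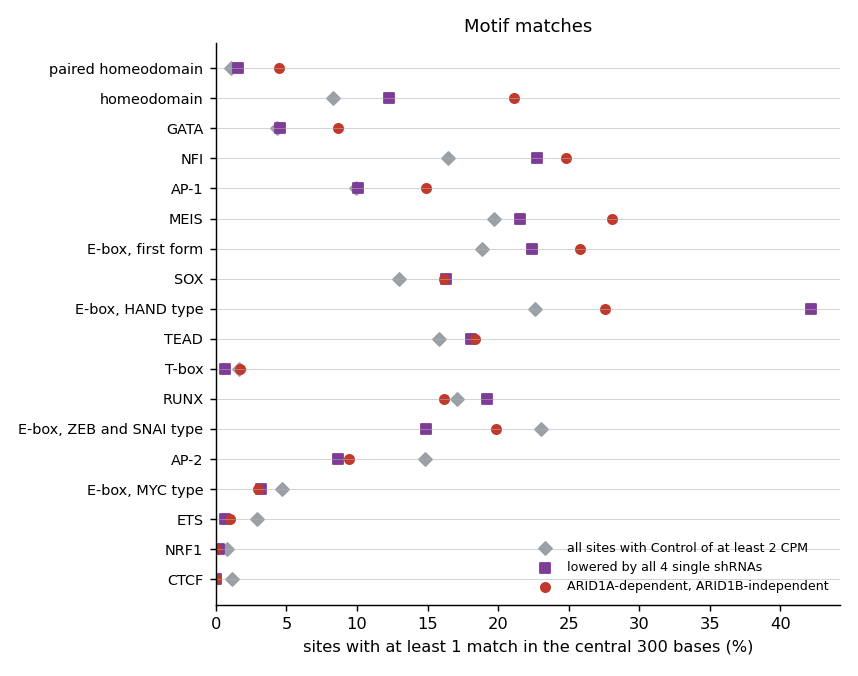
Shares of sites (horizontal axis, percent) with at least 1 pattern match in the central 300 bases, for 403 members (red circles), 2033 sites lowered by all 4 shRNAs (purple squares) and eligible sites (grey diamonds). The 4 E-box types are spelled as in the text, and members lead for homeodomain (21.1%), paired homeodomain (4.47%) and GATA (8.68%) patterns while sites lowered by all 4 shRNAs lead for the HAND-type E-box (42.2%).

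Members and sites lowered by all 4 shRNAs had the same median GC content, and the shares were therefore also taken among sites of like composition. Among 36506 eligible sites with a GC content between the members' quartiles of 38.7% and 49.8%, 9.90% held a homeodomain match, against 24.6% of the 203 members and 11.8% of the 1065 sites lowered by all 4 shRNAs in that range. The shares for the paired homeodomain pattern were 1.19%, 5.91% and 1.502%, and for GATA 5.88%, 10.3% and 5.35%. Over whole sites, where members are narrower than eligible sites, homeodomain matches were present in 50.6% of members, 34.6% of sites lowered by all 4 shRNAs and 35.3% of eligible sites, and paired homeodomain matches in 12.9%, 4.53% and 4.90%. For GATA the whole-site shares were 23.3%, 18.0% and 22.7%, so the GATA shares of members and eligible sites were closer over whole sites than in the central bases.

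The 18 members with a paired homeodomain match included the LOC101928121 site and the sites near RSRC1 and ARHGEF28. The stretches around the match are shown for the 5 most accessible in Control apart from the LOC101928121 site, with the match in capitals, because they show how its spacer varies between sites. They lie at chr12:128449567-128449607 in an intron of TMEM132C (MIR3612 site), chr1:154716395-154716435 in an intron of the potassium channel gene KCNN3 (ADAR site), chr3:158292520-158292560 in an intron of RSRC1, chr4:38382691-38382731 between genes (RP11-83C7.2 site) and chr5:73763522-73763553 in an intron of ARHGEF28, all on the plus strand of GRCh38.
MIR3612: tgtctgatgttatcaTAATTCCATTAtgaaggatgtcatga
ADAR: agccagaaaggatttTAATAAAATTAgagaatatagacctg
RSRC1: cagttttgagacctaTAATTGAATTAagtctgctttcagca
RP11-83C7.2: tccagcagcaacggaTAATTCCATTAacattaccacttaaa
ARHGEF28: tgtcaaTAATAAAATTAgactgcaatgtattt

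Combination ratios at these 18 members ranged from 0.212 to 0.979 with a median of 0.470. In the mean of both combinations 15 were called lower, where 94.3% of all members, 26.9% of eligible sites and 10.3% of all sites tested were. The MIR3612 site had a Control mean of 15.4 CPM and an ARID1A ratio of 0.551, an ARID1B ratio of 1.14 and a combination ratio of 0.437. The ADAR site had 13.8 CPM in Control and ratios of 0.549, 0.928 and 0.456. The RSRC1 site, described above as back at the Control level in the combinations, was the highest of the 18. Members without a paired homeodomain match had a median combination ratio of 0.532 (n = 385), against the 0.470 of the 18 with one. With a homeodomain match the median was 0.493 (n = 85) and without one 0.539 (n = 318). For GATA the values were 0.519 (n = 35) and 0.531 (n = 368). These differences were not tested.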

How the data were processed

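ATAC-Seq was measured in 21 libraries of SK-N-BE(2) cells, in 7 groups of 3 labelled as biological triplicates. The deposited tables hold raw read counts of each library over 367900 consensus sites, which the authors made from reads aligned to GRCh38. The aligner, counter and peak caller are not stated in any source used here. Each site's nearest gene, class and signed bases to the start site came from the deposited HOMER annotation. The tables also hold 36 columns of normalized counts and the authors' own DESeq2 ratios and p-values, none of which was used.

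CPM was the raw count over the column total. For tests, counts were fitted with edgeR 4.0.16 (R 4.3.3) in 1 quasi-likelihood model over all 21 libraries with TMM scaling (factors 0.948 to 1.06), and p-values were adjusted by Benjamini-Hochberg over the 357029 sites that passed filterByExpr (minimum count 10). The filter removed 10871 sites and all 403 members passed it. The common biological coefficient of variation was 0.0817. DESeq2 1.42.0, other scalings, other limits of the rule and leaving out libraries were the alternatives. Sequences were read from the GRCh38 reference with pysam 0.24.0, and 18 patterns and 11 gene lists were looked up.

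Named sites were, by rule, the 10 with the lowest larger ARID1A ratio among members whose ARID1A libraries all lay below Control, the 5 most accessible, the 5 most accessible at promoters, the 5 lowest and 5 highest combination ratios, the 3 smallest p in each direction between the combinations, the most accessible member of each gene list, and the 3 on each side of the ARID1A limit. The paired homeodomain stretches were chosen after their values were seen. The members, lists and patterns were chosen with earlier results of these data known. The deviations of same-numbered libraries from their group means correlated at -0.396 to 0.590, and 21 of 63 such pairs were over 0.1, against 22 of 126 pairs with different numbers. All 3 same-numbered pairs were over 0.1 between Control and shARID1A/B.2.3 (lowest 0.252), Control and shARID1A.2 (lowest 0.103) and shARID1A.2 and shARID1A/B.2.3 (lowest 0.117). The main model had no replicate block, and the fit with one is given among the alternatives. Some marker genes and 1 sequence window are not reported here.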

Additional observations from a re-analysis of the deposited data

Results flagged for a closer look

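The combinations differed from each other at 53 members that were lower and 14 that were higher with shARID1A/B.2.3 (edgeR, FDR under 0.01). These were 13.2% and 3.47% of members, near the 11.5% and 3.20% of eligible sites, and against 3.78% and 1.44% of all sites tested. Each difference below is the log2 of shARID1A/B.2.3 over shARID1A/B.4.2 from that test. Among the sites with the lowest ARID1A ratios or the highest Control levels, it was -0.44 at CHAT, -0.44 at PTGER4 and -0.65 at LOC101928579. Promoter members gave -0.64 at LOC102723861, -0.61 at SH2D6 and -0.52 at TRNAK29. At the extremes of the combination ratio it was -0.96 at TMIGD2 and 0.62 at LOC101927082. The smallest p-values belonged to TSPAN9 (-1.34), TRIM14 (-1.11) and MIR3679 (-1.16) in the lower direction and to PCDH10 (1.13), an intergenic site at chr20:40286443-40287854 (0.77) and GPD1L (1.07) in the higher direction. The potassium channel site KCNJ6 differed by -1.39.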

How the results depend on the processing

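The number of members was 592 with scaling on promoter sites, 229 of them among the 403. It was 616 and 208 with a Control floor of 1 and 4 CPM, 35 with an ARID1A limit of 0.5, 195 and 880 with an ARID1B limit of 1.0 and 0.8, and 384 to 431 when libraries were left out. Between the combinations, lower and higher calls were 22 and 24 with scaling on promoter sites, and 83 members were lower at an FDR under 0.05. Leaving out 1 library gave 35 to 58 lower and 4 to 10 higher calls, with 35 lower without shARID1A/B.2.3 replicate 2. Higher calls were 8 and 7 without shARID1A/B.2.3 replicate 1 and 2, and 8, 6 and 4 without shARID1A/B.4.2 replicate 1, 2 and 3. Against Control, 1 member was higher at an FDR under 0.05 in the mean of both combinations and in each of them, and 1 with shARID1A/B.2.3 under total counts. Without single libraries, lower calls were 359 to 377 in the mean, 349 to 362 with shARID1A/B.2.3 and 267 to 295 with shARID1A/B.4.2, and higher calls with shARID1A/B.2.3 were 0 to 1 (1 without its replicate 1). Against ARID1A silencing, 39 were lower at an FDR under 0.05. Median ratios to Control fell to 0.442 and 0.449 with promoter scaling. Taking sites between the members' Control quartiles changed the comparison shares to 3.92% promoter, 44.5% intergenic and 46.1% intronic. The share of members with a match over that of eligible sites was 2.54 for homeodomain, 2.01 for GATA, 1.503 for AP-1, 1.37 for CAGCTG, 1.22 for CAGATG, 1.51 for NFI and 1.42 for MEIS in the central bases. Over whole sites, where members are narrower, these became 1.43, 1.03, 0.957, 0.923, 0.938, 0.968 and 0.928. Among sites between the members' GC quartiles, a comparison added after seeing the data, CAGATG became 0.989 and NFI 1.20. The cause of these changes was not tested. With the replicate number as a block, lower and higher calls were 54 and 14 between the combinations, 380 and 0 in the mean against Control, 375 and 0 with shARID1A/B.2.3, 328 and 0 with shARID1A/B.4.2, and 26 and 13 against ARID1A silencing, and no named site changed its call under the block. No named site reversed under the settings run.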

Other observations

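The 24 sites of the mirrored rule, lowered by both ARID1B shRNAs and kept by both ARID1A shRNAs, had a median combination ratio of 0.746, and all 6 combination libraries lay below all 3 Control libraries at 41.7% of them. Their library medians were 0.824 to 0.861 with shARID1A/B.2.3 and 0.598 to 0.673 with shARID1A/B.4.2. Those of the 403 members were 0.482 to 0.525 and 0.522 to 0.548, a gap in the other direction. With the scaling on all sites, the median log2 of shARID1A/B.2.3 over shARID1A/B.4.2 was 0.23 at the 24 sites and -0.19 at the members. The difference between these gaps was not tested.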
